A study of Mus musculus with 5 samples.

Results

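The 9 genes described here are members of the tumour necrosis factor (TNF) family that act at the top of the alternative NF-κB pathway: the receptors Tnfrsf13c, Tnfrsf13b, Cd40, Ltbr and Tnfrsf11a and the ligands Tnfsf13b, Tnfsf11, Lta and Ltb. They were taken by symbol from the platform annotation, with every probe set that carries 1 of these symbols alone, which gave 15 of 45037 probe sets and 9 of 18193 named genes. The study profiled bone marrow cells enriched on magnetic beads for B220, a surface form of CD45 on developing B cells, from mice of the FVB background at 4 weeks of age. Affymetrix whole-genome mouse arrays were hybridised with RNA from 3 samples of KA/KA mice, in which both copies of the gene for the kinase IKKα carry the kinase-dead knock-in allele K44A (IKKαK44A/K44A), and from 2 samples of WT littermates. All groups were untreated. The labels number the mice without saying whether a sample is 1 animal or a pool, so the tests measure the spread between these samples. By the series title, the question is how IKKα signalling regulates early B cell formation.

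In the alternative pathway, TNF-family ligands engage receptors on the cell surface, which releases the kinase NIK (Map3k14) from degradation by a complex of TRAF and cIAP proteins. NIK activates IKKα, and IKKα drives the processing of the precursor p100 (Nfkb2) to p52, the partner of RelB. In B cells the receptor for the survival factor BAFF is the best known entry to this pathway, while the lymphotoxin β receptor uses it in stromal and epithelial cells to build lymphoid organs and RANK uses it in osteoclasts and in lymph node formation.

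Before any result, the arrays have to be divided, because marker genes on 3 of them go against the labelled cells. Of the 5, 2 with labels KA/KA 1 and WT 1 had a high median log2 signal (13.54 and 12.83) over the 24 spiked-in poly-A control probe sets, while KA/KA 2, KA/KA 3 and WT 2 had 7.09, 7.96 and 5.55. All 10 measured B-lineage markers exceeded the array median in the first pair, with summed signals of 59387 and 72579, against 1591, 5355 and 2435 on the other 3. The summed signal of 10 lung epithelial markers was 1139 and 1380 in the first pair, against 173846, 185522 and 115133. On each of those 3 arrays Rag1, Dntt, Igll1, Vpreb1 and Pax5 lay below the array median, against the label. The B-lineage markers Cd79b, Ms4a1 and Ebf1 lay above it on each, and Cd79a and Blk did so on KA/KA 3 and WT 2. The first pair also carried neutrophil markers. All 10 of these exceeded the array median on KA/KA 1 and WT 1, with summed signals of 116297 and 176092, above the B-lineage sums of the same arrays. KA/KA 1 and WT 1 are called the marrow-like pair below and the others the lung-like arrays. Neither set is a group of the study. Intensities have no depth, and the number of arrays limits the precision. Levels are given as log2(signal + 16).

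The promoters of 4 members are shown because the results turn on these genes: Tnfrsf13c, Tnfrsf13b and Ltb stood higher in the marrow-like pair, and Tnfsf11 stood higher on the KA/KA arrays inside the lung-like set. Each is the 250 bases before the RefSeq start (build GRCm38.p6), 5′ to 3′ on the gene's strand, with capitals marking motif matches.
Tnfrsf13c, chr15:82224381-82224630, minus strand: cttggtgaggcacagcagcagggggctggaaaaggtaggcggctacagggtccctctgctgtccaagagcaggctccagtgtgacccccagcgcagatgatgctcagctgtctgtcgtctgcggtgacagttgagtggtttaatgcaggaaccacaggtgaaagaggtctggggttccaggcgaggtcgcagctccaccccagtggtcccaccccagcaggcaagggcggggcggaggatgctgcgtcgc
Tnfrsf13b, chr11:61126505-61126754, plus strand: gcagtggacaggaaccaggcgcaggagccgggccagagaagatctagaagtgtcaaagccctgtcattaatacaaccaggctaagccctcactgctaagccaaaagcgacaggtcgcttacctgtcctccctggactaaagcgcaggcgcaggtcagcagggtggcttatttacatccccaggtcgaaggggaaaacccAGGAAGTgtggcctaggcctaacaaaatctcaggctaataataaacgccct
Ltb, chr17:35194257-35194506, plus strand: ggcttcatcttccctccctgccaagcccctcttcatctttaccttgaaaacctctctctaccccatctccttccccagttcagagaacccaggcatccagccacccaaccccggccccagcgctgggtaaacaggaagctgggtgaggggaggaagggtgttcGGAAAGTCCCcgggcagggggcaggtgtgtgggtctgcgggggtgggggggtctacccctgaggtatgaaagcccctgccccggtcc
Tnfsf11, chr14:78308044-78308293, minus strand: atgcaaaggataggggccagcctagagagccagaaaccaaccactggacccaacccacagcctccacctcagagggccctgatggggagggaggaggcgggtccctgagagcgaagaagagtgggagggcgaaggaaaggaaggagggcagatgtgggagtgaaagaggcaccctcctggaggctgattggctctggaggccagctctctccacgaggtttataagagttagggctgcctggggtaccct
A window was found for 8 of the 9 members, 9 windows in all. Both strands were searched for the κB consensus, for CCCNNGGG (the palindromic core bound by EBF1) and for AGGAAGT (bound by PU.1). In Ltb the κB consensus matched at GGAAAGTCCC, 87 to 78 bases before the start, and 7.25% of all 32851 windows held such a match. In Tnfrsf13b the PU.1 motif matched 51 to 45 bases before the start (7.69% of all windows). None of the 9 windows held the EBF1 core, which 11.8% of all windows did. These matches describe letters and are not evidence of binding.

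Receptors that B cells use were high in the marrow-like pair. Tnfrsf13c, the BAFF receptor through which mature B cells receive their survival signal, read 11.66 on KA/KA 1 and 11.86 on WT 1 of the marrow-like pair, against 6.70 on KA/KA 2, 8.32 on KA/KA 3 and 7.34 on WT 2 of the lung-like arrays. The sets did not overlap, and the signal on KA/KA 2 fell below the median of its array. The difference, marrow-like minus lung-like with genotype in the model, was 4.31 ± 0.49 log2 units (± SE, n = 2 and 3; limma, adjusted p = 0.0033), and the mean linear signal was 19.3 times higher. Tnfrsf13b (TACI), another BAFF receptor that also binds APRIL and restrains B cell numbers, read 12.09 on KA/KA 1 and 12.07 on WT 1, against 8.83 on KA/KA 2, 9.34 on KA/KA 3 and 8.43 on WT 2. It differed by 3.28 ± 0.29 (limma, adjusted p = 0.0017). Inside the marrow-like pair the Tnfrsf13b values of KA/KA 1 and WT 1 were 0.01 apart.

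**Figure D1:**
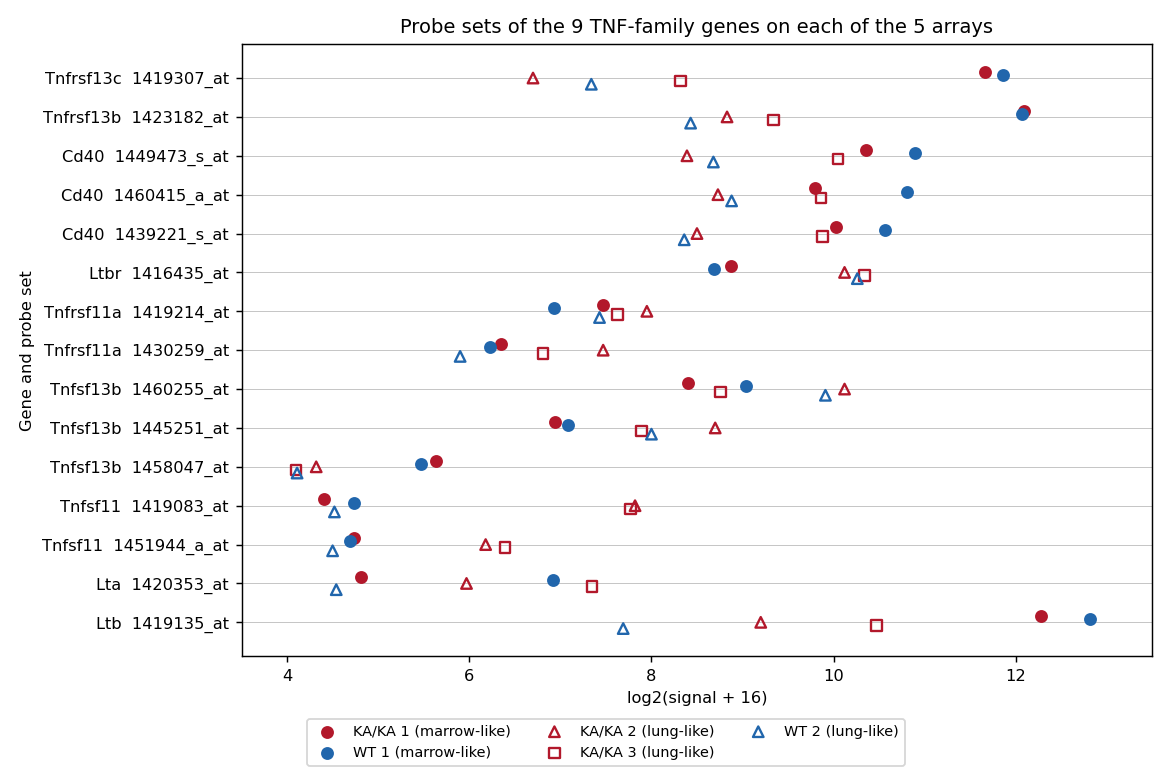
Levels of the 15 probe sets of the 9 genes, 1 row per probe set, as log2(signal + 16) on the x axis. Red marks KA/KA and blue WT arrays, filled circles are the marrow-like pair and open symbols the lung-like arrays. Tnfrsf13c, Tnfrsf13b and Ltb lie to the right on both marrow-like arrays, Ltbr lies to the right on the 3 lung-like arrays, and both Tnfsf11 probe sets lie to the right on KA/KA 2 and KA/KA 3 alone.

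Cd40, the receptor by which T cells stimulate B cells and dendritic cells, was measured by 3 probe sets, each low on KA/KA 2 and WT 2. The brightest (1449473_s_at) read 10.36 on KA/KA 1 and 10.89 on WT 1, against 8.39 on KA/KA 2, 10.05 on KA/KA 3 and 8.68 on WT 2. KA/KA 3 stood apart from the other lung-like arrays and close to the marrow-like pair, which it overlapped in 1 of the 3 probe sets (1460415_a_at). The 3 differences were 1.60 ± 0.54, 1.42 ± 0.51 and 1.11 ± 0.47 log2 units, and none passed limma's test (adjusted p = 0.0903, 0.106 and 0.158). Without KA/KA 3, the lung-like array with the highest Cd40, they were 2.09, 1.87 and 1.50, and all 3 passed (limma, adjusted p = 0.00363, 0.00794 and 0.0232). None passed when any other array was left out, and without WT 1 or WT 2 the estimates were 1.14, 0.84 and 0.50. With all arrays kept and each centred on its median, the brightest probe set passed too (1.95, limma, adjusted p = 0.0452). The others did not under that scaling (limma, adjusted p = 0.0511 and 0.0706). Of the 3, 2 are of the _s_at type, a suffix for probe sets shared by several transcripts.

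Ltbr, the lymphotoxin β receptor of stromal, epithelial and myeloid cells, ran in the opposite direction. It read 8.87 on KA/KA 1 and 8.69 on WT 1, against 10.12 on KA/KA 2, 10.34 on KA/KA 3 and 10.26 on WT 2. The sets did not overlap and the spread inside each was small (SD 0.13 in the marrow-like pair and 0.11 in the lung-like arrays). The difference was -1.45 ± 0.24 (limma, adjusted p = 0.0108). Tnfrsf11a (RANK), the receptor that commits precursors to osteoclasts, showed no separation. Its brighter probe set read 7.47 on KA/KA 1 and 6.93 on WT 1, against 7.95, 7.63 and 7.43 on KA/KA 2, KA/KA 3 and WT 2. The difference was -0.40 ± 0.33 (95% interval -1.2 to 0.4; limma, adjusted p = 0.453), and the second, dimmer probe set differed by -0.31 ± 0.46.

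Among the ligands, Ltb was higher in the marrow-like pair. It encodes lymphotoxin β, which anchors lymphotoxin α in the membrane of lymphocytes as the ligand of Ltbr, and its promoter holds the κB match printed above. Ltb read 12.28 on KA/KA 1 and 12.81 on WT 1, against 9.20 on KA/KA 2, 10.47 on KA/KA 3 and 7.69 on WT 2. All marrow-like values lay above all lung-like ones, and the lung-like values spread widely (SD 1.39). The difference was 3.59 ± 0.67 (limma, adjusted p = 0.0152). Lta, which encodes lymphotoxin α and lies beside Tnf and Ltb on chromosome 17, had 4.81 on KA/KA 1 and 6.92 on WT 1, against 5.97 on KA/KA 2, 7.35 on KA/KA 3 and 4.54 on WT 2. These values overlapped fully (difference -0.04 ± 0.98; limma, adjusted p = 0.983).

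Tnfsf13b encodes BAFF, which myeloid and stromal cells make. Its brightest probe set (1460255_at) read 8.40 on KA/KA 1 and 9.04 on WT 1, against 10.12 on KA/KA 2, 8.76 on KA/KA 3 and 9.91 on WT 2, a difference of -0.97 ± 0.43 (limma, adjusted p = 0.176). KA/KA 3 fell between the marrow-like values, and without it the difference was -1.29 and passed (limma, adjusted p = 0.0406). The difference did not pass when any other array was left out, with -0.62 without KA/KA 2 and -1.04 without WT 1 or WT 2. The second probe set (1445251_at) had 6.94 on KA/KA 1 and 7.08 on WT 1, against 8.70, 7.89 and 8.0 on KA/KA 2, KA/KA 3 and WT 2, and differed by -1.17 ± 0.38 (adjusted p = 0.0829). The dim probe set 1458047_at pointed the other way at 1.40 ± 0.28 (limma, adjusted p = 0.0185), but its linear signal was 33.4 and 28.4 in the marrow-like pair against 3.92, 1.16 and 1.23 on the lung-like arrays, at percentile 29.0 or lower of every array. The size of this difference depends on the added constant, with 3.54 for a constant of 1 and 0.53 for 64. Tnfsf11 (RANKL), the ligand of RANK that stromal cells, osteoblasts and activated T cells make, is described with the genotypes below, where its values divide. Between the sets its probe sets differed by -1.84 ± 0.80 and -0.80 ± 0.48 and did not pass (limma, adjusted p = 0.169 and 0.298).

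Over the list, 5 of 15 probe sets passed between the sets, 4 higher in the marrow-like pair (Tnfrsf13c, Tnfrsf13b, Ltb and the dim Tnfsf13b probe set) and 1 lower (Ltbr). Of all 45037 probe sets, 19.3% passed, 8% higher and 11.3% lower. That share includes many dim probe sets, whereas 10 of the 15 were at or above the median level. With only probe sets at or above that level fitted, 7885 passed, among them 4 of the 10. That fit leaves out every probe set below the median, so its share of calls is well above 19.3%. The 5 of 15 beside 19.3% thus do not show more calls than among bright probe sets. The gene lists below use each gene's probe set of highest mean, so the share is an unlike base for them too. The higher share of all calls was 41.5%, and 62.7% after centring each array on its median, where the median difference of all probe sets was 0.28 in place of -0.07. All marrow-like values lay above all lung-like values for 6 of the 15 probe sets (24.2% of all probe sets) and below them for 2 (28.6%). The median absolute difference was 1.40 over the 15 and 0.58 over all probe sets. No call on the list remained without WT 1 or WT 2, and only that of Tnfrsf13b without KA/KA 1. Those fits keep 1 array in a set or a genotype. Without KA/KA 3 there were 9 of the 15, beside 7988 of all probe sets. The 9 held every Cd40 probe set and Tnfsf13b probe sets of opposite sign. The estimates of the 5 called probe sets kept their sign whichever array was left out. Since these are whole samples, fewer cells of a type and less RNA per cell cannot be told apart. The sets also differ in the spiked-in poly-A control signal, which does not come from the cells. The part of sample labelling in the differences was not tested.

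**Figure D2:**
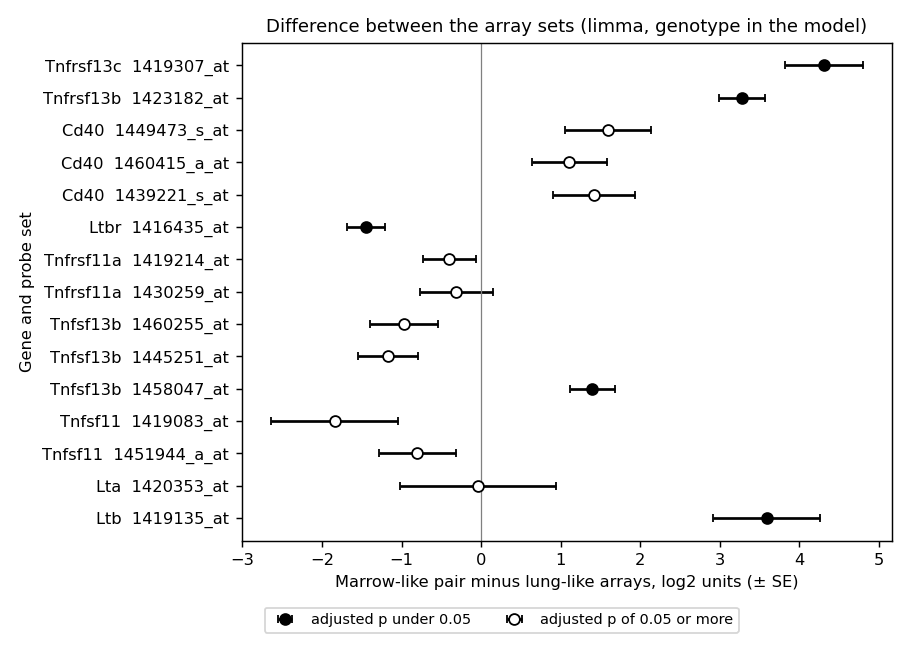
Difference between the array sets for the 15 probe sets, marrow-like pair minus lung-like arrays on the log2 scale, with limma's standard error as bars. Filled points passed an adjusted p of 0.05: Tnfrsf13c, Tnfrsf13b, Ltb and the dim probe set of Tnfsf13b to the right of 0 and Ltbr to the left.

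Genes that share ligands or receptors with the members were called in both directions. Of 8 measured partners, 2 were higher and 1 lower in the marrow-like pair, and the median over the 8 was -0.21, against -0.14 over all genes. Tnfrsf14 (HVEM), a receptor for lymphotoxin α and LIGHT, differed by 2.96 ± 0.60 (limma, adjusted p = 0.0203), and Tnfsf14, which encodes LIGHT, a further ligand of Ltbr, by 2.26 ± 0.51 (adjusted p = 0.0275). Tnfrsf1a, the broadly expressed TNF receptor, was lower (-1.28 ± 0.24, adjusted p = 0.0149). Tnfrsf11b, the decoy receptor osteoprotegerin that traps RANKL, did not pass (-2.31 ± 0.77, limma, adjusted p = 0.089), and neither did Tnf, Tnfrsf1b, Tnfrsf17 or Cd40lg. Of 22 other TNF-family genes, 0 were higher and 4 lower: the death receptor Fas (-3.05 ± 0.42), the death ligand gene Tnfsf10 (-3.03 ± 0.38), Tnfrsf25 (-2.63 ± 0.41) and the TWEAK receptor gene Tnfrsf12a (-2.32 ± 0.37), with adjusted p from 0.00443 to 0.00881 in limma. Tnfrsf25 was dim in the marrow-like pair (5.34 on KA/KA 1 and 4.45 on WT 1), so the size of its difference depends on the constant too. The median over the 22 was -0.81. The 4 calls among 22 stand beside the 19.3% called of all probe sets.

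Of 11 measured components, 1 was higher in the marrow-like pair (Traf5, 1.12 ± 0.27, limma, adjusted p = 0.0346) and 1 lower (Traf1, -2.47 ± 0.30, adjusted p = 0.00409), where 19.3% of all probe sets were called. Map3k14, which encodes the kinase NIK, read 7.99 on KA/KA 1 and 7.98 on WT 1, against 8.10, 8.20 and 8.01 on KA/KA 2, KA/KA 3 and WT 2 (difference -0.10 ± 0.28). Of 9 measured genes that alternative NF-κB signalling is known to induce, 2 B cell genes were higher, the complement receptor Cr2 (2.60 ± 0.50, limma, adjusted p = 0.0166) and the low-affinity IgE receptor Fcer2a (1.78 ± 0.46, adjusted p = 0.0428). The follicular chemokine Cxcl13 was lower (-2.43 ± 0.27, adjusted p = 0.00306), and the other 6 did not pass. In all, 3 of 8 partners and 3 of 9 induced genes were called, and these shares were not tested against that of all probe sets.

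KA/KA and WT were then compared inside each set. With the array set in the model, none of the 15 probe sets passed limma's test (adjusted p = 0.9997 for each) and neither did any of the 45037 (0%). At an unadjusted p under 0.05 there were 0 of 15 and 3.2% of all probe sets. The receptors of B cells gave small estimates with wide intervals: Tnfrsf13c 0.01 ± 0.49 (-1.18 to 1.21), Tnfrsf13b 0.38 ± 0.29 (-0.33 to 1.09) and the brightest Cd40 probe set 0.08 ± 0.54 (-1.22 to 1.38), each KA/KA minus WT in log2 units with its 95% interval. Ltbr had the narrowest interval (0.06 ± 0.24, -0.52 to 0.65). Such intervals leave room for differences of 2-fold or more, 1 log2 unit, in the first 3, so they do not show that the genotypes are alike.

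In the marrow-like pair, with 1 array per genotype and so no test, the median absolute difference was 0.33 log2 units over the 15 probe sets and 0.35 over all. KA/KA 1 was below WT 1 for 9 of 15 probe sets (48.2% of all probe sets) and above it for 6. Lta had the widest gap, 4.81 on KA/KA 1 against 6.92 on WT 1 (-2.11), and WT 1 alone exceeded the median of its array. The 3 Cd40 probe sets differed by -0.53, -0.53 and -1.01, and Ltb by -0.53. Of the 15, 2 were at least 1 log2 unit lower on KA/KA 1 (4.08% of all probe sets) and 0 at least 1 unit higher (5.62%). The summed signal of 9 T cell markers was 3823 on KA/KA 1 against 5986 on WT 1, with 3 of 9 higher on KA/KA 1. That of 10 B-lineage markers was 59387 against 72579 (4 of 10 higher) and that of 10 neutrophil markers 116297 against 176092 (0 of 10). Monocyte and macrophage markers went the other way, 38247 against 31821 (9 of 9), as did endothelial and stromal markers, 5877 against 4044 (9 of 10). Dendritic cell and lung epithelial markers were mixed (5 of 8 and 6 of 10 higher). The part of these cells in the gaps was not tested.

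On the lung-like arrays Tnfsf11, Ltb and Lta stood higher on both KA/KA arrays than on WT 2. The first Tnfsf11 probe set (1419083_at) had a linear signal of 209 on KA/KA 2 and 202 on KA/KA 3, against 6.96 on WT 2, which on the log2 scale is 7.82 and 7.77 against 4.52. The second (1451944_a_at) read 6.18 and 6.39 against 4.50. Outside this set Tnfsf11 was as dim as on WT 2, with 4.41 on KA/KA 1 and 4.74 on WT 1 for the first probe set. The differences inside the lung-like arrays were 3.27 ± 0.48 and 1.78 ± 0.45 log2 units (± SE, n = 2 and 1), with unadjusted p = 0.00236 and 0.0172 and adjusted p = 0.903 for both in limma. Their size depends on the constant added, since WT 2 is near 0: the first was 4.70 with a constant of 1 and 1.92 with 64, and the second 3.03 and 0.83.

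Ltb read 9.20 on KA/KA 2 and 10.47 on KA/KA 3, against 7.69 on WT 2, and the difference was 2.14 ± 0.64 (limma, unadjusted p = 0.0281, adjusted p = 0.903). In linear signal this was 3.00 and 7.37 times WT 2. Lta read 5.97 on KA/KA 2 and 7.35 on KA/KA 3, against 4.54 on WT 2, a difference of 2.12 ± 0.76 (unadjusted p = 0.0488, limma adjusted p = 0.903), and exceeded the array median on KA/KA 3 alone within this set. With WT 2 at a linear signal of 7.34, the Lta difference was 3.34 with a constant of 1 and 1.10 with 64. Tnf, the neighbour of both genes, differed by 2.37 ± 0.84 (unadjusted p = 0.0476), with 6.72 on KA/KA 2 and 8.32 on KA/KA 3, against 5.15 on WT 2. None of these passed.

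**Figure D3:**
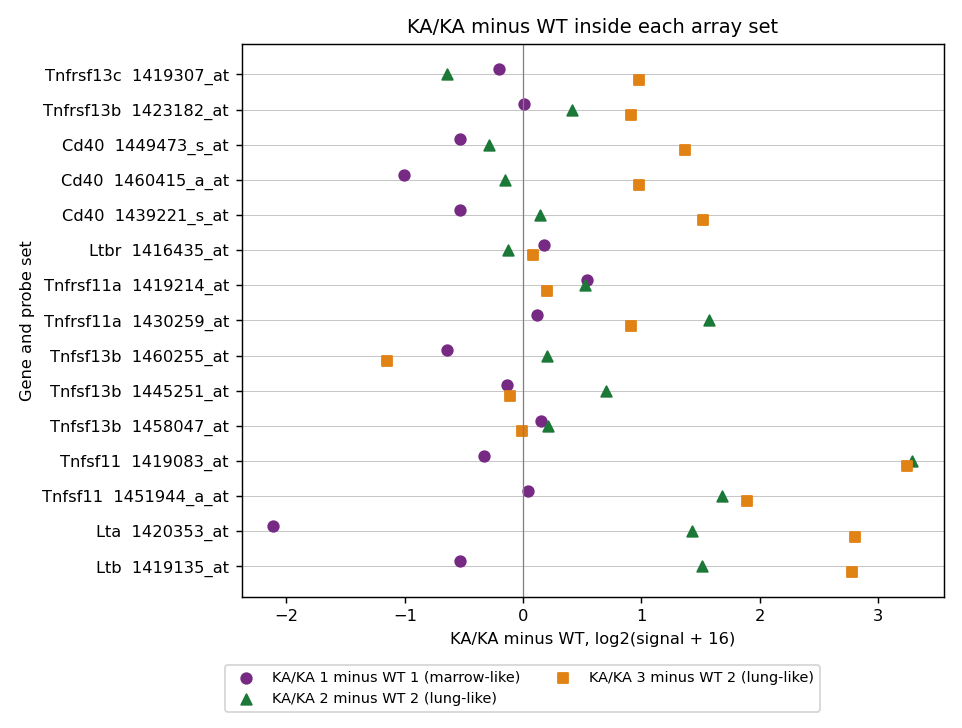
KA/KA minus WT for the 15 probe sets, in units of log2(signal + 16): circles for the marrow-like pair, triangles and squares for KA/KA 2 and KA/KA 3, each minus WT 2. Both Tnfsf11 probe sets, Lta and Ltb lie more than 1 unit to the right of 0 for both lung-like differences, and Lta lies 2.11 to the left in the marrow-like pair.

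Among the receptors inside the lung-like arrays, Tnfrsf13b was above WT 2 on both KA/KA arrays (8.83 and 9.34 against 8.43), by less than 1 log2 unit. Tnfrsf13c, at 6.70 on KA/KA 2 and 8.32 on KA/KA 3, straddled the 7.34 of WT 2. The brightest Cd40 probe set did likewise (8.39 and 10.05 against 8.68), as did 1460415_a_at (8.73 and 9.86 against 8.88), while 1439221_s_at was above WT 2 on both (8.50 and 9.88 against 8.36). Ltbr read 10.12 and 10.34 against 10.26. Both probe sets of Tnfrsf11a were above WT 2 on both KA/KA arrays, by 0.52 and 0.20 and by 1.57 and 0.91, with the second above the array median on KA/KA 2 alone. Tnfsf13b had 10.12 on KA/KA 2 and 8.76 on KA/KA 3, against 9.91 on WT 2.

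Counted over the list, 4 of 15 probe sets from 3 genes were at least 1 log2 unit above WT 2 on both lung-like KA/KA arrays, against 2.96% of all probe sets, and 0 were that far below (2.56%). The same 4 had an unadjusted p under 0.05 (5.42% of all probe sets, and 2.73% in that direction). That p adds no independent support, since it comes from the same 3 arrays, with WT 2 alone in its arm and the spread taken from KA/KA 2 against KA/KA 3. Both KA/KA arrays were above WT 2 for 8 of 15 (32% of all), and in 4 of these KA/KA 1 was also below WT 1 (16.9%). The fit made 0 calls over all 45037 probe sets at an adjusted p of 0.05 (0%). The difference between the sets in KA/KA minus WT was fitted as an interaction. Here KA/KA 1, WT 1 and WT 2 each stand alone, so the spread comes from KA/KA 2 against KA/KA 3, moderated by limma over all probe sets, and the single arrays are assumed to vary alike. The interaction was -3.60 ± 0.73 for the first Tnfsf11 probe set, -4.22 ± 1.16 for Lta and -2.68 ± 0.93 for Ltb (marrow-like minus lung-like). Their unadjusted p were 0.00733, 0.0209 and 0.0437, and none passed (adjusted p = 0.893 in limma for each; 0% of all probe sets passed and 4.65% had an unadjusted p under 0.05).

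Several lists of cell markers were also higher on the same 2 arrays. Of 9 T cell markers, 8 were above WT 2 on both, with a summed signal of 4393 on KA/KA 2 and 10601 on KA/KA 3, against 2198 on WT 2. The T cell receptor subunit gene Cd3g read 9.65 and 10.70 against 8.45, while Cd4 was below the array median on all 5 arrays. The sums of 9 monocyte and macrophage markers were 64348 and 43182 against 14413 (9 of 9 above WT 2 on both arrays). Those of 10 neutrophil markers were 33699 and 73883 against 6377 (7 of 10). Of 8 dendritic cell markers, 3 were above WT 2 on both arrays, with median differences of 0.02 on KA/KA 2 and 0.44 on KA/KA 3. Their sums were 9318 and 8179 against 3454, with Fscn1 2.42 and 2.79 and Itgax 2.04 and 0.47 above WT 2. Lung epithelial markers summed to 173846 and 185522 against 115133, and 6 of 10 were above WT 2 on both arrays, among them Sftpd (1.37 and 1.22), while Aqp5 was below it (-2.86 and -1.80). B-lineage markers did not follow (1591 and 5355 against 2435, 2 of 10), nor did endothelial and stromal markers (64319 and 45681 against 63252, 0 of 10). Ltb and Lta were highest on KA/KA 3, then KA/KA 2, then WT 2. The T cell, neutrophil and lung epithelial sums had that order too, while the sums of the other lists did not. Tnfsf11 was nearly equal on KA/KA 2 and KA/KA 3. The part of these cells in the differences was not tested.

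**Figure D4:**
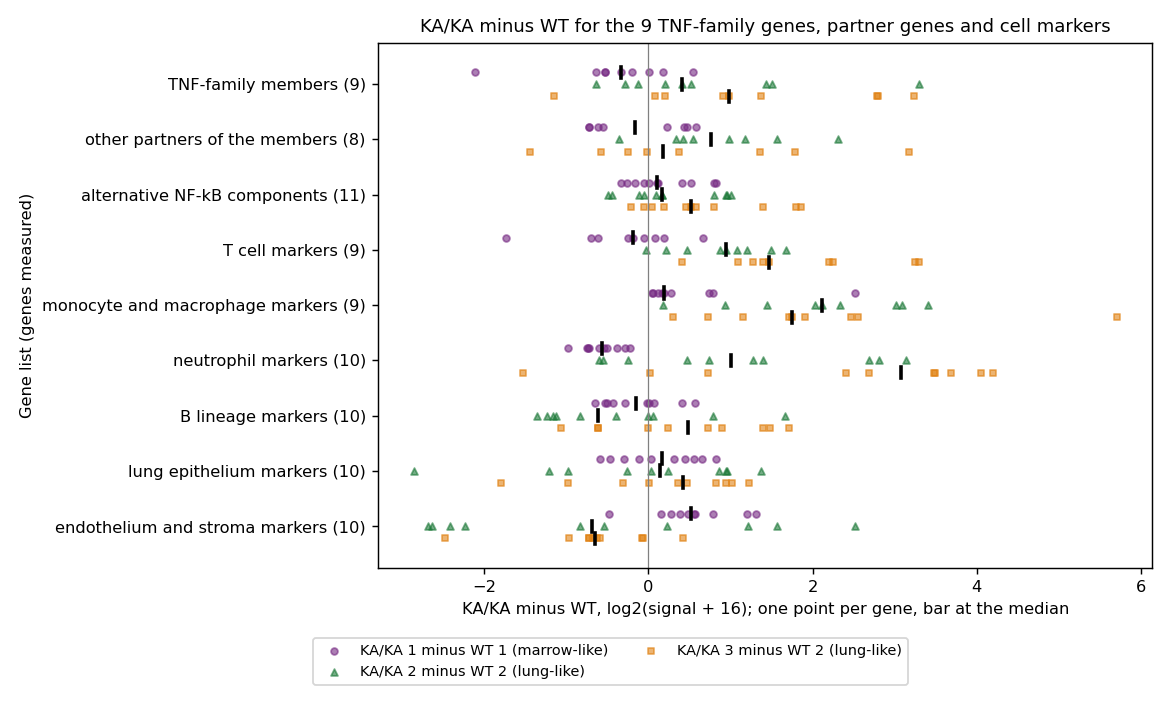
KA/KA minus WT in units of log2(signal + 16) for the 9 genes, partner genes, pathway components and cell markers, each gene by its probe set of highest mean; bars mark the median of each list. On the lung-like arrays the medians are 0.41 and 0.98 for the 9 genes, 0.94 and 1.47 for T cell, 2.11 and 1.75 for monocyte and macrophage and 1.01 and 3.08 for neutrophil markers.

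Other genes of the pathway gave no call for genotype either. Of 11 components, 8 partners, 22 further family genes and 9 induced genes, 0 passed with the array set in the model (limma, adjusted p = 0.9997 for each). At an unadjusted p under 0.05 in that fit there were 2, 1, 0 and 0, beside 3.2% of all probe sets. None was called inside the lung-like arrays either, where WT 2 stands alone. Nfkb2 was 0.80 higher on each KA/KA array than on the WT array of its set, and Relb 0.82, 1.01 and 1.39 higher, in the order KA/KA 1, KA/KA 2 and KA/KA 3. The TNF receptor gene Tnfrsf1b gave 0.92 ± 0.28 with the set in the model. Inside the lung-like arrays the smallest unadjusted p among components were those of Relb (1.20 ± 0.35) and Birc3 (1.38 ± 0.46), which encodes cIAP2 of the complex that degrades NIK. Among further family genes they were those of the T cell costimulatory receptors Tnfrsf18 (1.45 ± 0.33) and Tnfrsf9 (2.22 ± 0.58).

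The genes whose profile over the 5 arrays lay nearest to each member were found by the root mean square difference after centring each probe set on its mean, among 11391 genes; these 5 arrays include the difference between the sets. Nearest to Tnfrsf13c were Bfsp2, Cd72 and Cd79a (0.17 to 0.24 log2 units), Cd72 and Cd79a encoding B cell surface proteins. Nearest to Tnfrsf13b were Racgap1, Jakmip1 and Stil (0.14 to 0.16), and to Cd40 Zfand4, H2-Oa and 2410006H16Rik (0.07 to 0.15). Ltb was nearest to Traf3ip3, Rhoh and Pram1 (0.21 to 0.29). Ltbr had the closest neighbours with Trio, Acvr1b and Plekhg5 (0.03 to 0.04). For Tnfrsf11a they were Myh9, Ap5z1 and Srpk1 (0.03 to 0.05), and for Tnfsf13b Msmo1, Mboat2 and Pgpep1 (0.11 to 0.17). Tnfsf11 and Lta were below the median level of all probe sets, the limit for this search.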

How the data were processed

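Per the labels' protocols, RNA from B220-enriched marrow cells was labelled from 150 ng and hybridised to whole-genome mouse arrays. The authors deposited 1 table of intensity values, 45101 probe sets on 5 arrays. The submitters' processing notes name MAS5 and give no version. The series text speaks of a log2 transformation, but the values reach 40821 and the mean of each array, trimmed by 2% on either side, is 500, so they were used as linear intensities. Groups follow the labels.

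From these, log2(signal + 16) was computed for the 45037 probe sets that are not controls, without further scaling; array medians differed by 0.37. Of these, 34945 had 1 symbol in the platform annotation, 932 several and 9160 none. No filter was applied: 10 of the 15 probe sets described were at or above the median level, from 7 of 9 genes. limma 3.58.1 in R 4.3.3 (lmFit, eBayes with intensity trend, two-sided, Benjamini-Hochberg over all probe sets, threshold 0.05) fitted genotype and array set together, genotype inside the lung-like arrays, and their interaction. These fits have 2, 1 and 1 residual degrees of freedom. The array sets were divided at a median log2 poly-A control signal of 10. Other genes were represented by their probe set of highest mean and named by a fixed rule: from each list, up to 4 per direction past the threshold, or else the 2 of smallest p. Neighbours, 3 per gene, were named by a fixed rule too; Tnfrsf11b, Map3k14, Cd3g, Cd4, Fscn1 and Itgax were named after their values were seen. The lists held 11 genes that are not analysed here. On simulated data of 45037 probe sets, with 200 changed by genotype under the model with array set, limma recovered 0.746% of 2-fold, 46.4% of 4-fold and 99.7% of 16-fold changes; inside the lung-like arrays it recovered 0.448%, 26.1% and 98.0%. The noise was independent and had limma's moderated variance for each probe set, so these rates need not hold on the real arrays. In the simulation, 13.3 and 48.0 unchanged probe sets per draw were called. The genes, lists and array sets were chosen with earlier results of these data known. The alternatives were quantile and median scaling, constants of 1 and 64, a filter on dim probe sets, eBayes without trend and robust, averaged probe sets, leaving out each array, a block for the replicate number, and no array-set term.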

Additional observations from a re-analysis of the deposited data

How the results depend on the processing

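Of the 5 probe sets past the threshold between the array sets, all kept their direction under every alternative that gave them a value, and lost the call only when KA/KA 1, WT 1 or WT 2 was left out. The dim Tnfsf13b probe set had no value of its own with dim probe sets filtered or probe sets averaged. The averaged Tnfsf13b pointed the other way at -0.25 (limma, adjusted p = 0.662). In that averaged fit of 18193 genes, 4 of the 9 passed. Leaving out 1 array at a time gave 0 to 9 such probe sets and 525 to 9428 of all probe sets; with probe sets of a gene averaged, 4042 genes passed. With 1 array left out these fits have 1 residual degree of freedom. Among uncalled differences between the sets, Lta turned to 0.16 (quantile normalisation), 0.31 (median centring) and 0.03 (constant 1), and ranged from -1.85 to 2.37 with 1 array left out. The dim Tnfrsf11a probe set turned to 0.01 and 0.04 under quantile normalisation and median centring and ranged from -0.79 to 0.33, and the Tnfsf11 probe sets from -3.38 to 0.22 and from -1.55 to 0.19.

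For KA/KA minus WT no probe set of the 9 genes passed under any alternative. Leaving out 1 array gave ranges of -0.42 to 0.39 for Tnfrsf13c, -0.53 to 0.54, -1.01 to 0.41 and -0.53 to 0.83 for Cd40, -0.03 to 0.18 for Ltbr, -0.14 to 0.30 for the second Tnfsf13b probe set, -0.33 to 3.27 for Tnfsf11, -2.11 to 2.12 for Lta and -0.53 to 2.14 for Ltb. Without WT 2 only the marrow-like pair informs the estimate. Without the array-set term, values were -0.70 for Tnfrsf13c, -0.17 for Tnfrsf13b, -0.19 for Cd40 and -0.11 for the dim Tnfsf13b probe set. With the replicate block they were -0.42 for Tnfrsf13c, -0.41 and -0.20 for Cd40 and -0.34 for Lta, and 2 of all probe sets passed, against 0 without the block; leaving out KA/KA 3 also gave 2 (0 to 2 over the 5 arrays). The samples share only a number: deviations from the genotype mean of KA/KA 1 with WT 1 correlated at 0.79 and of KA/KA 2 with WT 2 at 0.52, but KA/KA 3 with WT 2 reached 0.65. Each pair lies inside 1 array set, so these correlations carry the difference between the sets. They cannot show whether equal numbers mark paired samples. Inside the lung-like arrays Ltbr turned to 0.04 (quantile normalisation) and 2e-05 (median centring). The interaction, tried under alternatives chosen after seeing the data, turned to -0.32 for the dim Tnfsf13b probe set (constant 1) and -0.47 for Tnfrsf11a (probe sets averaged). The cause of these turns was not tested. Precision is limited by 5 arrays and by signals near 0.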
